A study of Mus musculus with 20 samples.

Results

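The matricellular protein genes described here are Sparc, Thbs1, Thbs2, Postn, Tnc, Ccn1, Ccn2 and Fn1, 8 of 21887 mouse protein-coding genes. They were chosen by name for the function of their proteins, with earlier results of these data known, and located by their mm10 positions. Chromatin immunoprecipitation with sequencing (ChIP-seq) was performed on the mouse mammary epithelial line Comma-Dβ at passage 28. Antibodies were directed against HEB (an E protein transcription factor encoded by Tcf12), H3K27ac, H3K4me3 and H3K27me3, with input chromatin as the unprecipitated control, and each of these 5 groups had 4 samples. All groups came from the same line, with no treatment among the labels used here, so the comparisons are between marks and between genes, not between conditions. The data were 4 deposited peak lists, 1 per antibody, which carry no value per replicate. No error between replicates could therefore be given, read depth is unknown, and no test was made.

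Matricellular proteins are secreted into the extracellular matrix, where they mostly modulate how cells attach, migrate and receive growth factors rather than bear load. Thrombospondins, tenascin-C, periostin, SPARC and the CCN proteins act through integrins, proteoglycans and growth factors, and fibronectin, the product of Fn1, is a structural adhesive glycoprotein that several of them bind. Ccn1 and Ccn2 are widely used as target genes of the coactivators YAP and TAZ, which act with TEAD transcription factors. H3K4me3 is found at promoters, H3K27ac at active promoters and enhancers, and H3K27me3 at genes silenced by Polycomb complexes. HEB binds the E-box, a short DNA motif, as a dimer.

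All 8 genes carried both active marks. H3K27ac peaks lay over the gene or within 1 kb of its ends at 8 of 8 genes, against 63.2% of all protein-coding genes, and H3K4me3 peaks at 8 of 8, against 61.2%. H3K27me3 was present at 1 of 8, Thbs2, against 37.5% of all genes. H3K27ac and H3K4me3 together without H3K27me3 were found at 7 of 8 genes, against 44.7% of all genes. An HEB site lay within 100 kb of 1 of 8, Sparc, against 12% of all genes, a share near that background. Each gene had exactly 1 H3K4me3 peak, and the number of H3K27ac peaks over the gene varied between 1 (Thbs1 and Ccn1) and 13 (Tnc, also the longest gene at 87.2 kb).

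**Figure D1:**
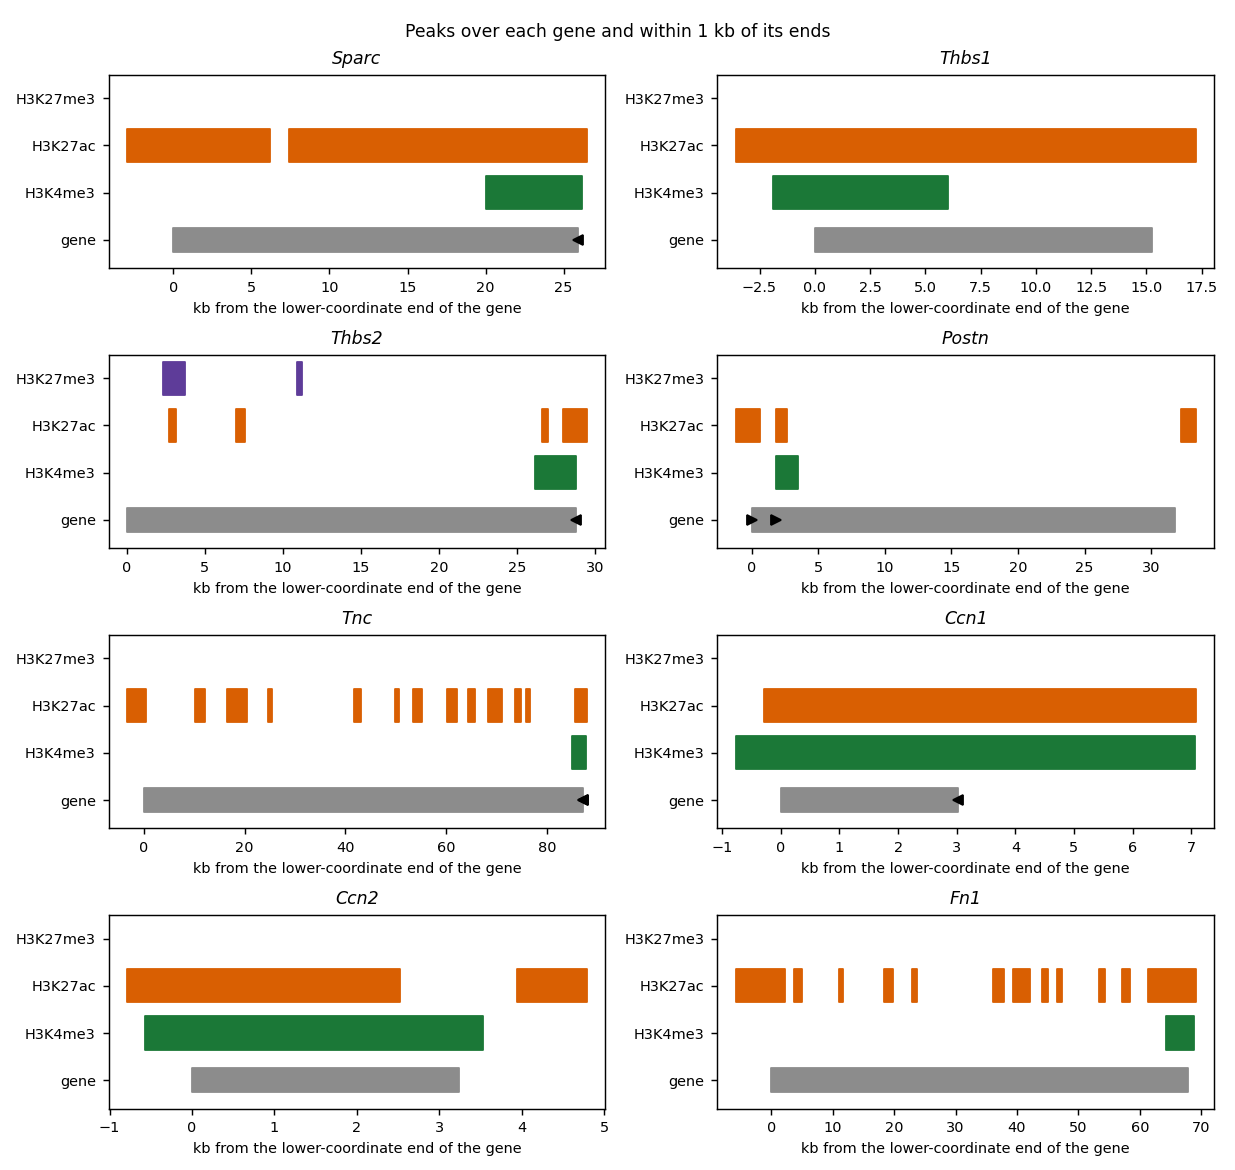
Peaks of H3K27me3, H3K27ac and H3K4me3 (coloured bars) over each gene (grey bar) and within 1 kb of its ends, with position in kb from the lower-coordinate end of the gene on the x axis. Black arrowheads mark annotated starts and their direction for the 5 genes with a start in the promoter table. H3K27ac ran across the whole of Thbs1 and Ccn1, lay in many separate peaks over Tnc and Fn1, and H3K27me3 appeared at Thbs2 alone of the 8.

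The active marks at these genes were mostly wide, while their highest H3K4me3 fold lay below the median of the genes with the mark. The widest H3K4me3 peak of each gene had a median width of 4.32 kb over the 8 genes, against 2.25 kb over the 13398 protein-coding genes with the mark, and 7 of 8 lay above that median. The highest H3K4me3 fold enrichment, the authors' ratio of ChIP over control for a peak, had a median of 16.3 over the 8 genes and of 19.9 over the genes with the mark, and all 8 lay below it. Set against the median over single peaks of the H3K4me3 list, a fold of 12.9, 5 of the 8 genes lay above. For H3K27ac the widest peak had a median of 5.70 kb, against 2498 bp over 13837 genes with the mark, with 6 of 8 above. The highest H3K27ac fold had a median of 4.48, against 4.41, with 5 of 8 above. These are descriptions of 8 chosen genes. A longer gene has more room for wide peaks, but the part of gene length in these widths was not tested. The longest gene, Tnc (87.2 kb), had widest H3K27ac and H3K4me3 peaks of 4.04 and 2.90 kb. Those of Thbs1 (15.3 kb), the widest of the 8 for both marks, were 20.8 and 7.88 kb.

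**Figure D2:**
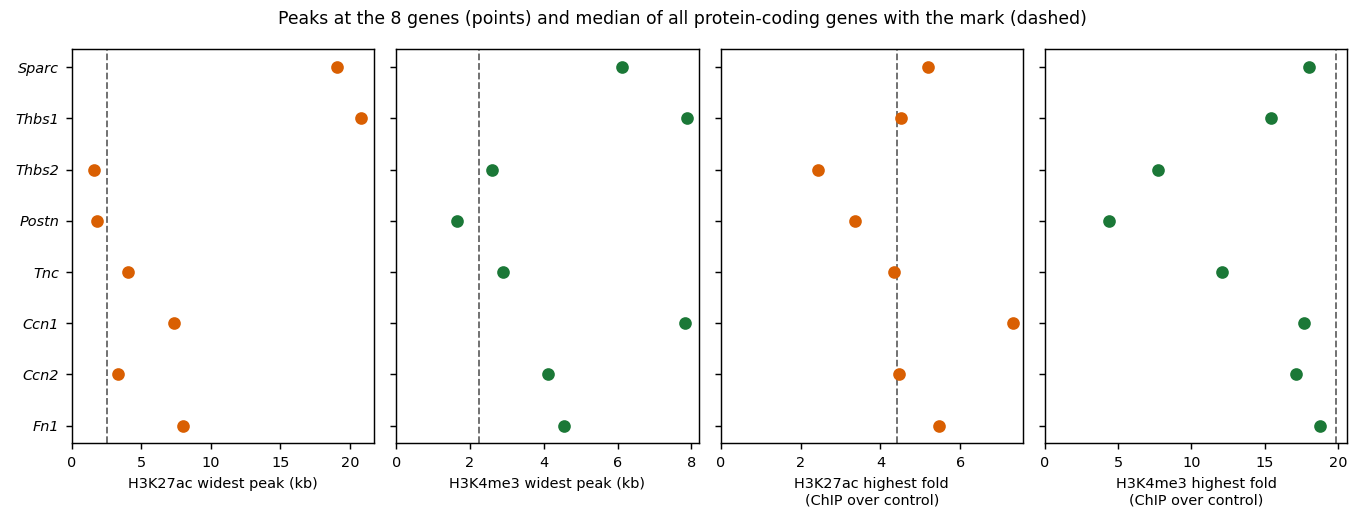
Widest peak in kb and highest fold of ChIP over control for H3K27ac (orange points) and H3K4me3 (green points) at each of the 8 genes, with dashed lines at the median of all protein-coding genes that carry the mark. Thbs1 and Sparc had the widest H3K27ac peaks, 20.8 and 19.1 kb, and all 8 H3K4me3 folds lay left of the dashed line at 19.9.

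The thrombospondin genes Thbs1 and Thbs2 encode related trimeric glycoproteins that inhibit angiogenesis, and Thbs1 also activates latent TGF-beta. Thbs1 (chromosome 2, 118111876 to 118127133) lay entirely inside 1 H3K27ac peak of 20.8 kb (118108301 to 118129104) with a fold of 4.51 and a −log10 q of 26.4. This peak was wider than 99.9% of the H3K27ac list. The H3K4me3 peak of Thbs1 was 7.88 kb wide with a fold of 15.4, and it began 1.88 kb outside the lower-coordinate end and covered 6003 bp of the gene. It was wider than 99.6% of the H3K4me3 list and higher in fold than 56.0% of it.

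Thbs2 (chromosome 17, 14665500 to 14694262) had the weakest H3K27ac of the 8 genes by highest fold. Its 4 H3K27ac peaks had folds of 1.83, 2.16, 2.11 and 2.43, covered 9.38% of the gene and its flanks, and had −log10 q values between 1.18 and 4.12. Thbs2 was the one member whose H3K27ac did not reach a −log10 q of 5. The H3K4me3 peak at the Thbs2 start was 2.60 kb wide, wider than 75.7% of the list, with a fold of 7.75 and a −log10 q of 78.4. It stopped 2 bp upstream of the start and ran 2599 bp into the gene. The 2 H3K27me3 peaks lay inside the gene, 26.5 and 17.9 kb from the start at their far edges, with widths of 1425 and 315 bp, folds of 1.58 and 1.84 and −log10 q values of 1.41 and 2.87. Neither reached a −log10 q of 5, which a peak reached at 19.5% of all genes. The wider of them spanned the weakest of the Thbs2 H3K27ac peaks (14668221 to 14668626). Set side by side, the H3K27ac marks of the paralogs covered 100% of the Thbs1 window and 9.38% of the Thbs2 window, and their highest folds were 4.51 and 2.43.

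The CCN genes encode small cysteine-rich secreted proteins that bind integrins and heparan sulfate and are induced rapidly by serum, growth factors and stretch. Ccn1 (chromosome 3, 145646971 to 145649985) had the highest H3K27ac fold of the 8 genes, 7.32 (−log10 q of 54.4), in a peak of 7.36 kb, which was higher in fold than 97.0% of the list. Its H3K4me3 peak of 7.84 kb with a fold of 17.7 covered the gene and 4.05 kb upstream of the start. The gene itself is 3.02 kb long, and both peaks were wider than it. Ccn2 (chromosome 10, 24595442 to 24598683) had an H3K27ac peak of 3.31 kb with a fold of 4.45 and a −log10 q of 23.2. A second, weak H3K27ac peak with a fold of 2.14 began 705 bp beyond the higher-coordinate end of Ccn2, just inside the limit of 1 kb. The H3K4me3 peak of Ccn2 was 4.11 kb wide with a fold of 17.1 and covered the whole gene. The paralogs thus had similar H3K4me3 folds, 17.7 and 17.1, while the Ccn1 peaks were wider for both marks.

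Sparc encodes a collagen-binding glycoprotein of basement membranes and bone. Sparc (chromosome 11, 55394159 to 55420080) had 2 H3K27ac peaks that covered 94.1% of the gene and its flanks. The stronger was 19.1 kb wide with a fold of 5.18 (−log10 q of 32.5) and ran from 0.558 kb upstream of the start to 18.5 kb into the gene. The other was 9.17 kb wide with a fold of 2.25 and passed the far end of the gene. The H3K4me3 peak of 6.11 kb had a fold of 18.0 and lay almost wholly downstream of the start, reaching 237 bp upstream and 5873 bp downstream. It was wider than 98.9% of the H3K4me3 list.

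Fn1 and Tnc are the long genes of the group, and their H3K27ac was split over many peaks. Fn1 (chromosome 1, 71585473 to 71653280) had 12 H3K27ac peaks over 33.3% of the gene and its flanks. The strongest, 7.84 kb wide with a fold of 5.46 and a −log10 q of 38.6, lay at the higher-coordinate end together with the H3K4me3 peak of 4.54 kb and fold 18.8, the highest H3K4me3 fold of the group. At the lower-coordinate end of Fn1 lay a peak of 7.96 kb with a fold of 2.08, and the other 10 had folds between 1.87 and 2.47.

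Tnc encodes tenascin-C, an anti-adhesive hexamer of developing and injured tissue. Tnc (chromosome 4, 63959785 to 64047015) had 13 H3K27ac peaks over 25.2% of the gene and its flanks, with folds between 1.80 and 4.33. Its strongest H3K27ac was not at the start. The peak over both annotated starts had a fold of 2.37 (−log10 q of 4.06), against 4.33 (−log10 q of 19.8) for the peak of 3.84 kb over the far end of the gene, 3.52 for a peak of 4.04 kb at 63976294 to 63980333 and 3.60 for a peak of 2.79 kb at 64028056 to 64030840. The H3K4me3 peak at the Tnc starts was 2.90 kb wide with a fold of 12.1.

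Postn encodes periostin, a fasciclin-domain protein of periosteum, tendon and stroma that binds collagen and integrins. Postn (chromosome 3, 54359267 to 54391041) had the weakest H3K4me3 of the group, a peak of 1.64 kb with a fold of 4.37 and a −log10 q of 24.2, higher in fold than 28.4% of the list. Its 3 H3K27ac peaks had folds of 3.36, 2.09 and 2.03 and covered 8.69% of the gene and its flanks. The last of them lay 492 bp past the far end of the gene. Postn was also the member with the most H3K27me3 around it. H3K27me3 covered 35.8% of the region from 100 kb below to 100 kb above Postn, and the nearest peak, 17.4 kb wide with a fold of 2.28, lay 6.16 kb from the gene. The same share was 13.4% around Thbs2, 6.46% around Sparc, 0.991% around Tnc and 0.904% around Thbs1. No H3K27me3 peak lay within 100 kb of Ccn1, Ccn2 or Fn1. H3K27me3 is a widespread mark in these data, with 379.1 Mb in the whole list. The share within 100 kb was not computed over all protein-coding genes. These values therefore rank the members only, and whether any of them is high or low for a gene was not tested.

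Annotated starts were available for 5 of the 8 genes (Sparc, Thbs2, Postn, Tnc and Ccn1), with 7 starts in all, from RefSeq on GRCm38.p6, the assembly mm10 is based on. H3K27ac lay over 6 of the 7 starts, against 46.5% of 21263 starts of protein-coding genes, and H3K4me3 over 6 of 7, against 53.3%. The 2 Tnc starts lay under the same peaks and are not separate observations. Counted by gene, each of these marks lay over a start of 5 of 5 genes, and the share of all genes by that count was not computed. H3K27me3 lay over 0 of 7, against 20% of all starts. Both exceptions were in Postn, where the marks split between the starts. The first start (54359267) lay in the H3K27ac peak with fold 3.36 and outside H3K4me3. The second (54361107) lay in the H3K4me3 peak, which began 18 bp upstream of it, while the weaker H3K27ac peak (fold 2.09) began just downstream of it.

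The 250 bases before 4 of these starts are shown in 5′ to 3′ direction, because they carry the contrast between the Postn starts, the promoter of the member with an HEB site nearby (Sparc) and that with the highest H3K27ac fold (Ccn1). They are the RefSeq sequences of chr11:55420081-55420330 (minus strand) for Sparc, chr3:54359017-54359266 and chr3:54360857-54361106 (plus strand) for Postn, and chr3:145649986-145650235 (minus strand) for Ccn1. Capitals mark E-boxes (CANNTG) in Sparc, the TATA box letters TATAAA in Postn and Ccn1, and the TEAD site letters GGAATG, read on the other strand as CATTCC, in Ccn1.
Sparc: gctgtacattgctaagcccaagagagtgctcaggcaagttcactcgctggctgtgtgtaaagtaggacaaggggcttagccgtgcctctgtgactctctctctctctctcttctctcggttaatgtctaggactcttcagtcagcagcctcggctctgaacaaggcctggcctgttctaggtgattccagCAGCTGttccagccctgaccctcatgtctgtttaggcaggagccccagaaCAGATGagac
Postn start 1: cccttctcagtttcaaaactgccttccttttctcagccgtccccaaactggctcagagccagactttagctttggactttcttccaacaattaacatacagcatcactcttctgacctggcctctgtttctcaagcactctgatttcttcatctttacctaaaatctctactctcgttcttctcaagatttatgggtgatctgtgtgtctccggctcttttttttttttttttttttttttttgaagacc
Postn start 2: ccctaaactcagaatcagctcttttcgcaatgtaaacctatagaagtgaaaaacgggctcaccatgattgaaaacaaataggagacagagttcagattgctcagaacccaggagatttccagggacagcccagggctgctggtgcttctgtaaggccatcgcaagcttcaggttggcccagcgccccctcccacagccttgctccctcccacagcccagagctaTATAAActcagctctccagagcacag
Ccn1: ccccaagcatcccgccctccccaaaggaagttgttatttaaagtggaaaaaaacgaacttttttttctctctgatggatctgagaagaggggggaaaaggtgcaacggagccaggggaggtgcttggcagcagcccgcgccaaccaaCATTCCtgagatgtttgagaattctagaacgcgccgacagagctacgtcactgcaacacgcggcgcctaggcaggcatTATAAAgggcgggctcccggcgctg

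Fixed motifs were searched on both strands of the 7 windows. The general E-box was read as CANNTG, and its forms with GC and with GG in the middle were also read separately, so that they are contained in it. CANNTG occurred before 4 of the 7 starts, against 62.8% of all starts, and they belonged to Sparc, Thbs2 and Tnc. The matches CAAATG and CAACTG were the same bases in both Tnc windows. The Sparc match CAGCTG at 60 to 55 bases before the start was the one match to that E-box among the 7, against 12.1% of all starts. TATAAA occurred before 5 of 7, against 11.6%. In Ccn1 it lay 25 to 20 bases and at the second Postn start 26 to 21 bases before the start. In Thbs2 and Tnc it lay more than 100 bases before the start (the 2 Tnc windows overlap and share 1 match). The Thbs2 match was on the strand opposite to transcription, read as TTTATA in the window, and the others were on the transcribed direction's strand. GGAATG occurred before Ccn1 alone, 103 to 98 bases before the start, against 11.7% of all starts. The E-box form CAGGTG had 0 matches, against 16.9% of all starts. The AP-1 site, read as TGANTCA, had 0 matches, against 6.13%, and the CArG box of serum response factor had 0, against 1.39%. These are matches of letters in short windows and say nothing on binding.

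CpG dinucleotides in the same windows numbered 4 in Sparc, 3 in Thbs2, 3 and 4 in Postn, 8 and 10 in Tnc and 15 in Ccn1, against a median of 10 over all starts. Sparc thus combined one of the wide H3K4me3 peaks with a window poorer in CpG than that median. Ccn1, with H3K4me3 of similar fold, had a CpG-richer window.

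Long noncoding RNA (lncRNA) genes lay under the H3K4me3 peaks of 5 of the 8 genes, against 14.6% of the 13398 protein-coding genes with H3K4me3. Any overlap of a peak with a lncRNA gene was counted, and a wider peak has more room for one. Gm17501 starts 92 bp from the start of Ccn1 and runs away from it on the opposite strand. Gm13986 starts on the minus strand 674 bp outside the lower-coordinate end of Thbs1, and Gm15270 starts on the minus strand 361 bp inside that end of Ccn2. Apol7d, listed as a lncRNA gene, begins 55 bp beyond the higher-coordinate end of Fn1. At Tnc, 8030451A03Rik is transcribed from the opposite strand across 62285 bp of the gene and its starts. Its start at 63984731 lies inside Tnc, and the H3K4me3 peak of Tnc (64044683 to 64047584) lies within the body of the lncRNA gene. Peaks at the ends of Ccn1, Thbs1, Ccn2 and Fn1 cannot be divided between the coding gene and the lncRNA gene. Gm13986 and Gm15270 are long, 253.9 and 264.1 kb, and all 8 H3K27ac peaks beyond the Thbs1 flanks lay over or within 1 kb of Gm13986. Inside Postn, between its starts, lies the lncRNA gene Gm31095, and the H3K27ac peaks at both Postn starts lay over it or within 1 kb of it.

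The surroundings of the genes varied. All 8 had H3K27ac within 100 kb, against 87.3% of all genes, which the peaks at the genes already fix. Within 100 kb of the 8 genes lay 130 H3K27ac peaks, of which 38 were at the genes and 92 further away. Of those 92, 85 had no H3K4me3, 26 touched another protein-coding gene or its 1 kb flanks, and 56 had the member as the nearest protein-coding gene. The H3K27ac list holds 61496 peaks and the H3K4me3 list 17162, and these shares were not computed over all H3K27ac peaks. Sparc had 25 peaks over 86.4 kb, Tnc 26 over 48.0 kb, Fn1 19 over 41.7 kb, Ccn1 16 over 37.1 kb and Thbs2 15 over 31.0 kb. Ccn2 had 11 peaks over 23.9 kb, and Thbs1 and Postn had 9 each, over 27.9 and 19.2 kb. The median over all protein-coding genes was 9 peaks and 14507 bp. Neighbours matter to these counts, since 4 other protein-coding genes lay within 100 kb of Sparc, 2 within 100 kb of Ccn1 and 1 near each other member.

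**Figure D3:**
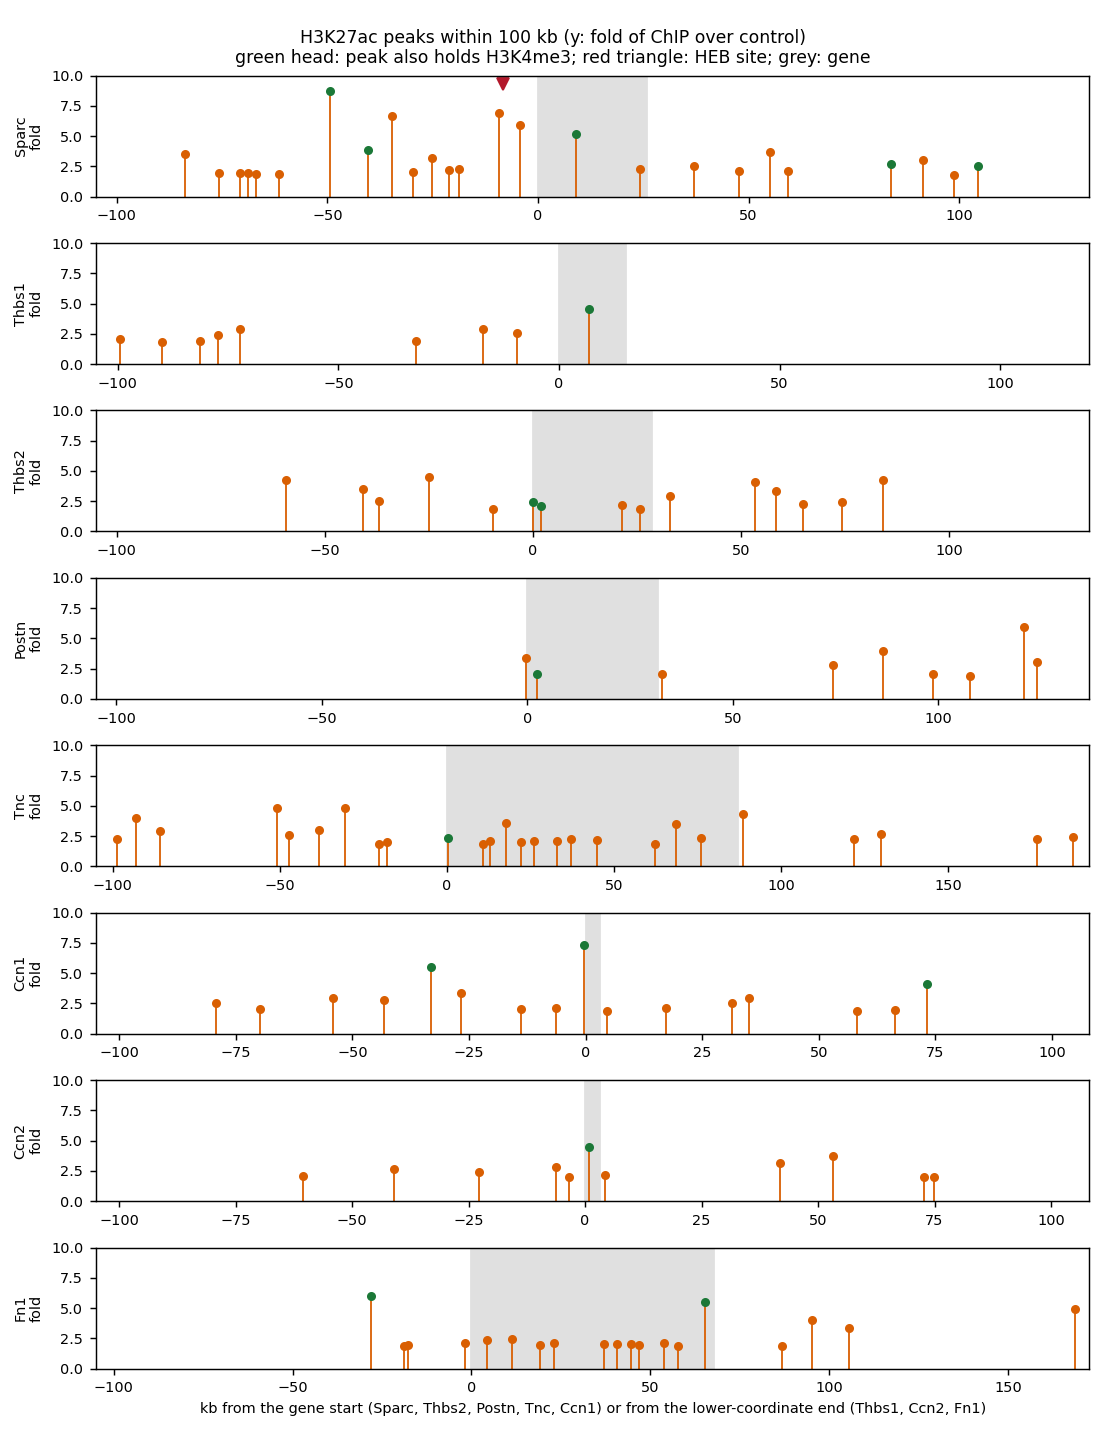
H3K27ac peaks within 100 kb of each gene, with the position of the peak's midpoint in kb on the x axis and its fold of ChIP over control on the y axis; heads are green where the peak also holds H3K4me3, the grey band is the gene and the red triangle is an HEB site. The axis starts at the annotated gene start and follows transcription for Sparc, Thbs2, Postn, Tnc and Ccn1, and starts at the lower-coordinate end for Thbs1, Ccn2 and Fn1. The HEB site stands upstream of Sparc, and Postn has no H3K27ac peak in the 100 kb upstream of its first start other than the one over that start.

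Upstream of Sparc, peaks of 2.62 kb at 2.99 kb and of 3.89 kb at 7.35 kb from the start had folds of 5.95 and 6.89, both above the 5.18 over the gene. Neither held H3K4me3, and Sparc was the nearest protein-coding gene to both. The highest fold in the region, 8.71, belonged to a peak 47.6 kb away over G3bp1, which held H3K4me3. Upstream of Tnc lay peaks with folds of 4.85 at 28.5 kb, 4.81 at 49.6 kb and 4.03 at 92.2 kb from the gene, against a fold of 2.37 over its starts. All 3 lay over the lncRNA gene 8030451A03Rik (63984731 to 64148556), as did the other 6 H3K27ac peaks upstream of Tnc. Upstream of Ccn1, a peak of 7.35 kb at 29.5 kb had a fold of 5.50 and held a small H3K4me3 peak of 693 bp with a fold of 3.54, with no other protein-coding gene within 1 kb of it.

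Thbs2 and Postn had the lowest H3K27ac folds over the gene, and higher folds lay away from it. Such a difference is common, since the median highest fold over all protein-coding genes was 2.97 at the gene and 5.82 within 100 kb. The highest fold within 100 kb of Thbs2 was above that of 32.4% of all genes, and that of Postn above 51.3%. Thbs2 had peaks with folds of 4.47 at 22.7 kb upstream, 4.24 at 52.7 kb downstream and 4.07 at 24.2 kb downstream, each above the 2.43 at its start. All 6 peaks beyond the Postn flanks lay downstream, and the strongest had a fold of 5.92 at 87.7 kb, against 3.36 at the first start. Beyond Fn1, peaks with folds of 4.00, 3.33 and 4.89 lay 25.9, 35.6 and 96.6 kb past the higher-coordinate end, and the 6.02 at 27.5 kb on the other side touched Atic and held H3K4me3. Thbs1 showed the reverse arrangement, with no peak beyond its flanks above a fold of 2.88, against 4.51 over the gene, and with none beyond its flanks on the higher-coordinate side. A Thbs1 peak at 98.9 kb and a Tnc peak at 99.2 kb lay just inside the limit of 100 kb.

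The HEB site at Sparc lay on chromosome 11 from 55428216 to 55428470, 8.14 kb upstream of the start, and Sparc was the gene with the nearest end. The site was 255 bp wide, against a median of 438 bp for the 956 sites. It lay inside the upstream H3K27ac peak with fold 6.89 (55427425 to 55431318), 791 bp from the edge nearer to Sparc, and overlapped neither H3K4me3 nor H3K27me3. That peak had a higher fold than 83.7% of the 747 H3K27ac peaks with an HEB site (scaffolds left out). The nearest HEB sites to the other members lay 229.3 kb from Thbs1, 234.4 kb from Fn1, 474.0 kb from Ccn2, 1003 kb from Ccn1, 1112 kb from Thbs2, 1204 kb from Tnc and 2179 kb from Postn. No site thus lay close to, but outside, the limit of 100 kb.

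Other genes of the same pathways were described by the same rule. Among 21 other matricellular genes, H3K27ac was present at 19, H3K4me3 at 14 and H3K27me3 at 17, against 63.2%, 61.2% and 37.5% of all genes. At a minimum −log10 q of 5, H3K27me3 was present at 0 of the 8 genes above, at 9 of these 21 and at 19.5% of all genes. Both active marks without H3K27me3 were found at 7 of the 8 genes above and at 4 of these 21, against 44.7% of all genes. Peaks of any q were counted there. The members and lists were chosen with earlier results of these data known, and no contrast between them was tested. The widest H3K27ac peak of that list, 11.6 kb, lay at Spp1, which encodes osteopontin, and the widest H3K27me3 peak, 67.0 kb, at Smoc2. HEB sites lay within 100 kb of 4 of the 21, against 12% of all genes, namely 2 near Ccn4 (the nearer at 4.89 kb), 2 near Tgfbi (8.86 kb) and 1 inside each of the fibulin genes Fbln1 and Fbln5. Of the other CCN genes, Ccn3, Ccn5 and Ccn6 carried H3K27me3 peaks with folds of 2.76, 1.92 and 1.76, and Ccn4 carried none. Of these, Ccn3 reached a −log10 q of 5 (12.2), while Ccn5 (3.46) and Ccn6 (2.52) did not. Thbs3 had H3K4me3 with a fold of 28.3 and no H3K27me3. Thbs4 had H3K27me3 with a fold of 1.89 and a −log10 q of 3.32, and Comp had it with a fold of 5.77 and a −log10 q of 60.2.

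Of 16 genes for receptors of these proteins, 14 had H3K27ac, 13 had H3K4me3 and 4 had H3K27me3, against 63.2%, 61.2% and 37.5% of all genes. H3K27me3 reached a −log10 q of 5 at 2 of the 16, against 19.5% of all genes. The widest H3K27ac peak in this list was 41.8 kb at Itga3, an integrin subunit gene, and the widest H3K27me3 peak 15.7 kb at Itga9, which encodes an integrin subunit that binds tenascin-C. HEB sites lay within 100 kb of 4 of the 16, against 12% of all genes. They lay inside Itgb6, an integrin subunit gene, and Lrp1, which encodes an endocytic receptor of thrombospondin, and 11.2 and 38.0 kb from the syndecan genes Sdc1 and Sdc4. All 16 genes of YAP, TAZ, TEAD and Hippo signalling had both active marks, against 56.3% of all genes. None of them had H3K27me3, against 37.5% of all genes. The median highest H3K27ac fold was 4.48 over the 8 matricellular genes and 6.37 over these 16. HEB sites lay within 100 kb of 5 of these 16, against 12% of all genes, namely inside Wwtr1 (TAZ), Tead1, Ajuba and Vgll4, with 2 at Vgll4, and 37.8 kb from Tead3, and the widest H3K27ac peak, 37.0 kb, was at Vgll4.

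Fibrillar collagens are load-bearing proteins of the matrix. H3K27me3 lay at 1 of the 8 matricellular genes and at 6 of 11 fibrillar collagen genes, against 37.5% of all genes. At a minimum −log10 q of 5 the counts were 0 of 8 and 3 of 11, against 19.5%. Of the 11, 9 had H3K27ac, against 63.2% of all genes, and 10 had H3K4me3, against 61.2%. HEB sites lay within 100 kb of 1 of the 8 matricellular genes and of 5 of the 11 collagen genes (Col1a1, Col1a2, Col3a1, Col5a1 and Col5a2), against 12% of all genes, and whether these shares differ was not tested. The widest H3K27ac peak of that list was 26.4 kb at Col1a1 and the widest H3K27me3 peak 51.4 kb at Col27a1. A site that lies near neighbouring genes was counted for each of them.

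**Figure D4:**
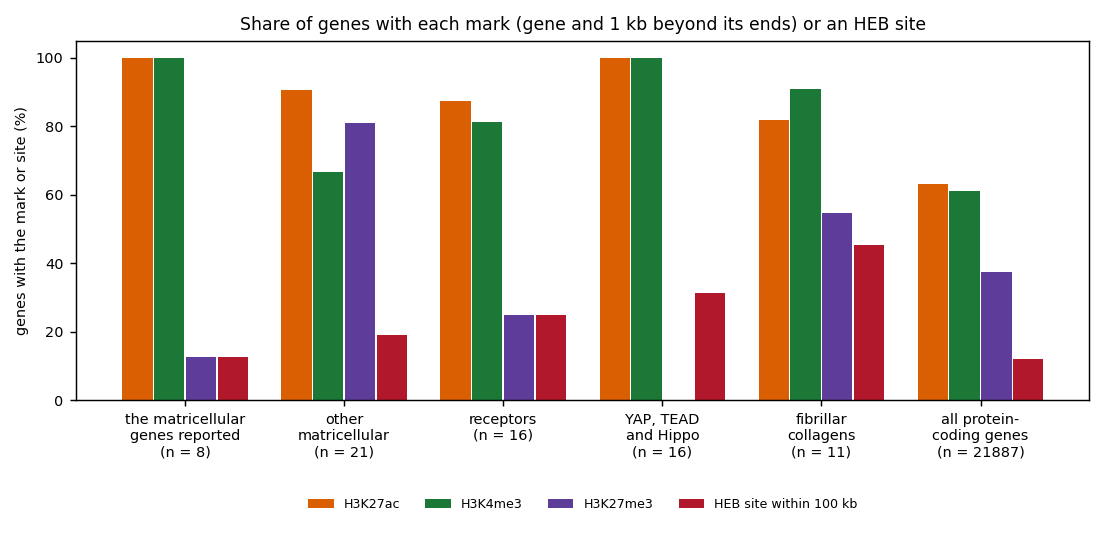
Share of genes in percent with an H3K27ac, H3K4me3 or H3K27me3 peak over the gene or within 1 kb of its ends, or with an HEB site within 100 kb, for the 8 matricellular genes, 4 other lists and all protein-coding genes. H3K27me3 stands at 1 of 8 in the first group and at 17 of 21 in the other matricellular genes, against 37.5% of all protein-coding genes, with peaks of any q counted.

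The genes with the most similar peaks were sought over 7 values (base pairs covered and highest fold of each mark, and H3K27ac base pairs within 100 kb), each as a percentile rank among 21887 genes. The nearest were Tns3 and Phactr4 to Sparc (mean rank difference of 0.832 and 0.931 percentile points), Macrod2 and 4921524J17Rik to Thbs1 (1.26 and 1.47), Zfp36 and Dnajc14 to Ccn1 (1.31 and 1.56) and Dgcr8 and Ap2m1 to Ccn2 (1.89 and 2.26). Zfp462 and Plekhg3 stood nearest to Fn1 (1.29 and 1.33), Lrp6 and Znrf3 to Tnc (1.70 and 1.91), Dnajb5 and Adam8 to Postn (1.33 and 2.91) and Gm44504 and Crygn to Thbs2 (3.95 and 5.30). Within the group, Sparc and Fn1 were nearest to each other at 2.84 points, and Thbs2 was the most distant, with Postn nearest to it at 19.6 points. The 7 values include base pairs and fold of H3K27me3, where Thbs2 alone of the 8 was above 0. Those values came from its 2 weak peaks, with −log10 q of 1.41 and 2.87, and the distance of Thbs2 without them was not computed.

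The line was checked against marker genes by the same rule. Both active marks lay at 4 of 4 basal mammary markers (Krt5, Krt14, Trp63 and Acta2) and 4 of 4 luminal ones (Krt8, Krt18, Epcam and Cdh1), against 56.3% of all genes. They lay together at 3 of 4 fibroblast markers (Pdgfra, Pdgfrb and Dcn, with Lum free of all 3 marks), 1 of 3 endothelial markers (Pecam1), 1 of 3 immune markers (Ptprc) and 0 of 2 adipocyte markers. The H3K4me3 peaks of Pecam1 and Ptprc were small, 460 and 379 bp, with folds of 2.08 and 3.03, against a list median of 12.9. The H3K4me3 folds at Dcn and Trp63 were also low, 2.99 and 4.31. H3K27me3 was also present at 2 of 4 basal, 2 of 4 luminal, 1 of 4 fibroblast, 2 of 3 endothelial, 3 of 3 immune and 1 of 2 adipocyte markers. The share of all genes with H3K27me3 was 37.5%, with peaks of any q counted. At a minimum −log10 q of 5, H3K27me3 was at 1 of 4 basal, 2 of 4 luminal and 1 of 4 fibroblast markers. By that threshold it was at 0 of 3 endothelial, 0 of 3 immune and 1 of 2 adipocyte markers, against 19.5% of all genes. The highest H3K27ac fold was 7.08 over the basal, 5.73 over the luminal, 4.55 over the fibroblast and 7.18 (Pecam1) over the endothelial markers, against 2.49 over the immune ones, and the adipocyte markers had no H3K27ac peak. Stromal cells are a known source of Sparc, Postn and Fn1, and the part of any other cell type in the marks at these genes was not tested.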

How the data were processed

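ChIP-seq of 20 samples was deposited as 4 peak lists in mm10, per the submitters' processing notes. These notes list SAMtools with no version. Aligner, peak caller, control and the handling of replicates: not given in the sources used here. Of each HEB site the deposited list has its position alone, and the list's name describes a replicate consensus with a minimum overlap of 2. The 3 histone lists have the broadPeak layout. Their fold (a ratio of ChIP over control) and −log10 q-value per peak are the authors' deposited values. The deposited score equals 10 times −log10 q as a whole number for all but 5 peaks of each H3K27 list and was not used. A wide peak can depend on how the caller joins neighbouring regions, and lists from separate calls share no scale, so folds were compared within a list only.

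Gene positions and promoter sequences came from RefSeq tables of GRCm38.p6. All 8 genes were found there, and 5 of them in the promoter table; Thbs1, Ccn2 and Fn1 were not. The 50 bases after each start were not used. A peak was counted at a gene when 1 bp or more lay over the gene or within 1 kb of its ends, and as near it within 100 kb. Percentiles give the share of genes or peaks with a lower value, a gene without the mark counting as 0. The interval code was tested on simulated data. Python 3.11.15, numpy 2.4.6, pandas 2.3.3 and matplotlib 3.10.9 were used. No count, depth or interval per sample could be had, and no test was run. All 8 genes are named. From each other list, genes with an HEB site and those with the widest H3K27ac and H3K27me3 peaks are named, and Thbs3, Thbs4, Comp, Ccn3, Ccn5 and Ccn6 were added after their values were seen as relatives of members. The members and lists were chosen with earlier results of these data known.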

Additional observations from a re-analysis of the deposited data

How the results depend on the processing

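Alternatives changed the peak threshold, the window, the overlap rule and the distances. Of 31 planned ones, 25 left a count within 1.5 times its value. These include the planned HEB alternatives, each entered for members and again for sites, which could only return 1. The 1 HEB site lay 8.14 kb from Sparc, its nearest gene, inside an H3K27ac peak. H3K4me3 above the median fold of its list was present at 5 of 8 genes (Ccn1, Ccn2, Fn1, Sparc and Thbs1), against 43.8% of all genes. H3K27me3 was present at 0 of 8 at a minimum −log10 q of 5, against 19.5% of all genes, and at 0 of 8 within 1 kb of a gene end, against 32.3%, so the presence at Thbs2 rests on 2 weak peaks inside the gene. The 130 H3K27ac peaks within 100 kb became 56 with −log10 q of 5 or more, 65 with peaks above the median fold and 63 within 25 kb. With a distance of 250 kb, chosen after seeing the data, 3 members had an HEB site (3 sites, at Sparc, Thbs1 and Fn1), against 23.3% of all genes. At a minimum −log10 q of 5, H3K27ac was at 7 of 8 genes, against 55.1% of all genes, and within 1 kb of a gene end H3K4me3 was at 7 of 8, against 55.8%, Postn being the exception. No paired analysis was possible because each list combines the replicates of an antibody and has no column per replicate. Leaving out a replicate was not possible for the same reason. Read depth is unknown, so a mark or site absent from a list may have been below detection.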
